A study of Mus musculus with 2 samples.

Results

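The genes described here encode parts of the antibody molecule and proteins of the cells that make it: Ighm, Jchain (formerly Igj), Cd79b, Sdc1 and Mzb1. They were chosen by name, and every probe set that the platform annotation gives to one of these symbols alone was taken, whatever its signal. Of the 5 genes, 4 had such a probe set, 17 probe sets in all, out of 12393 genes and 20380 probe sets with a single symbol. Mzb1 had none and has no value here. Of the 5, Ighm and Jchain encode chains of the antibody itself, and the others are a receptor subunit, a cell surface proteoglycan and a folding factor.

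Affymetrix mouse arrays were used to read RNA levels in teratomas, the growths of many tissue types that arise where pluripotent cells are grafted. The EiPS pool is RNA of teratomas grown from EiPS cells (induced pluripotent cells, labelled 1E12), which the submitters call regressing. The B6 ES pool is RNA of teratomas grown from embryonic stem cells of strain C57BL/6 (B6). The strain label was C57BL/6 on both arrays, and the cells of both groups were grafted under the skin of male B6 mice; the labels give neither host age nor further genotype nor the number of hosts. RNA of 2 tumours, removed at week 6, was pooled for each array. With 1 array per group there is no replicate, no difference below was tested, and the values compare these 2 pools. Precision is limited by that number of arrays. The tumours hold cells of the graft and of the host, and in such bulk RNA fewer cells of a type and less RNA per cell cannot be told apart.

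The median signal over 22690 probe sets was 196 on the EiPS array and 179 on the B6 ES array. A signal floor of 25.4 was set at the 90th percentile of 68 probe sets for smell, vomeronasal and bitter taste receptors, which were held to be silent here. It left 82.1% of probe sets above it on the EiPS array and 79.3% on the B6 ES array. Where 1 of the 2 signals was lower than the floor, the floor took its place, and the fold is marked "at least". No fold is given where both signals are under it. All 20 epithelial genes in a list of markers were above the floor on 1 array or more, as were 9 of 9 housekeeping genes, whose median log2 difference was 0.13. Differences are log2 signal in the EiPS pool minus log2 signal in the B6 ES pool.

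B cells carry immunoglobulin M on their surface as an antigen receptor, with the Cd79a and Cd79b proteins as its signalling subunits. Plasma cells, which develop from B cells, secrete antibody in bulk, and those that make polymeric antibody join the units with the J chain. Polymeric immunoglobulin A and M bound by the J chain are carried across epithelia by the receptor Pigr. Sdc1 (syndecan 1, CD138) is the usual surface marker of plasma cells but is also made by epithelial cells, and Mzb1 assists antibody assembly in the endoplasmic reticulum together with the chaperone Hsp90b1.

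The 4 measured genes had higher signals in the EiPS pool by their brightest probe set, by 2.89-fold for Ighm, 2.02-fold for Sdc1, 1.70-fold for Jchain and 1.24-fold for Cd79b. Without a replicate, the closest gauge of error is how far the probe sets of 1 gene spread in their log2 differences, an SD that was 0.40 over 3813 genes and 0.50, 0.41 and 0.29 at signals under 100, from 100 to 1000, and of 1000 or more. It does not cover how tumours, hybridizations or labelling reactions vary. The log2 differences of Ighm (1.53), Sdc1 (1.01) and Jchain (0.76) exceeded it, and that of Cd79b (0.32) did not. Signals for the immunoglobulin A heavy chain, for 4 kappa light chain probe sets and for Pigr differed by more than those of any of the 4 genes. Of 17 B cell receptor and surface genes with a probe set, 12 could be compared and 10 of these were higher, among them Cd72 (2.78-fold), Cd74 (2.44-fold), Syk (2.27-fold) and Blnk (2.01-fold). The median of these 12 genes was 0.24, and 0.05 after quantile normalization. Of all genes compared, 56.3% were higher by any amount and 5.82% by 2-fold or more. The B cell genes Cd79a, Ms4a1, Pax5 and Cr2 were under the floor on both arrays.

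Ighm, the constant region gene of the heavy chain of immunoglobulin M, had 11 probe sets, 5 above the floor and 6 under it on both arrays. The probe set 1427870_x_at had a signal of 292.9 in the EiPS pool and 101.4 in the B6 ES pool, the largest difference of the gene above the floor. The suffix x_at marks probes that may also match other sequences. Probe set 1427351_s_at had 199.7 in the EiPS pool and 112.6 in the B6 ES pool, a 1.77-fold difference. Probe set 1427329_a_at had 187 in the EiPS pool and 94.5 in the B6 ES pool, a 1.98-fold difference. All these signals were at least 3 times the floor, on both arrays.

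The other Ighm probe sets lay closer to the floor or under it. Probe set 1425247_a_at had 86.1 in the EiPS pool and 42.1 in the B6 ES pool, a 2.05-fold difference. Probe set 1452535_at had 37.8 in the EiPS pool and 31.7 in the B6 ES pool, a 1.19-fold difference that was lower than the gauge of error and turned to -0.0614 on the log2 scale after quantile normalization. The 5 log2 differences had a median of 0.98 and an SD of 0.46, so the probe sets of this gene spread about as widely as those of other genes. With shared probe sets left out Ighm was just short of 2-fold (0.98). With all 11 averaged, those under the floor included, the B6 ES average was under the floor, which took its place. The difference by that average, at least 0.52, is thus a bound. The 6 probe sets under the floor had signals from 5.11 to 24.3 in the EiPS pool and from 1.48 to 15.1 in the B6 ES pool. Of these, 1425324_x_at came closest to the floor, with 24.3 in the EiPS pool and 5.18 in the B6 ES pool. Probe sets 1451949_at (22.1 in the EiPS pool and 2.60 in the B6 ES pool), 1427756_x_at (20.1 in the EiPS pool and 11.7 in the B6 ES pool) and 1427869_at (5.11 in the EiPS pool and 1.48 in the B6 ES pool) also had the higher signal in the EiPS pool. Probe sets 1425385_a_at (7.43 in the EiPS pool and 15.1 in the B6 ES pool) and 1426196_at (10.7 in the EiPS pool and 12.9 in the B6 ES pool) had the lower one there. At such signals no direction is drawn from them.

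Jchain, the joining chain of polymeric immunoglobulins A and M, was read by a single probe set. Its signal was 86.1 in the EiPS pool and 50.8 in the B6 ES pool, a 1.70-fold difference at a low signal on both arrays. The difference was between 0.39 and 0.76 on the log2 scale under every alternative that kept the gene above the floor, lowest with log2(signal + 64).

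Cd79b, the signalling subunit of the B cell receptor, was also read by 1 probe set. Its signal was 47.6 in the EiPS pool and 38.2 in the B6 ES pool, within the gauge of error for signals under 100. After quantile normalization its log2 difference was 0.02. Both signals were lower than 49.6, the 98th percentile of the silent receptors, so with the floor set there Cd79b would not be compared.

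Sdc1 had 4 probe sets, and those above the floor on both arrays differed by similar amounts. The probe set 1437279_x_at had 1343 in the EiPS pool and 665 in the B6 ES pool. Probe set 1415943_at had 660 in the EiPS pool and 377 in the B6 ES pool, a 1.75-fold difference. Probe set 1415944_at had 232 in the EiPS pool and 138 in the B6 ES pool, a 1.68-fold difference. The SD of these 3 log2 differences was 0.14. Probe set 1448158_at had 53.3 in the EiPS pool and 20.4 in the B6 ES pool, where it was under the floor, and was at least 2.09-fold higher. That bound depends on the floor: with the floor raised to 49.6 it was 0.10 on the log2 scale. The 2.02-fold difference of the brightest probe set lies at the 2-fold line, and the gene was under 2-fold with equal medians (0.89 on the log2 scale), with log2(signal + 64) (0.95), without shared probe sets (0.81) and with its probe sets averaged (0.99).

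**Figure D1:**
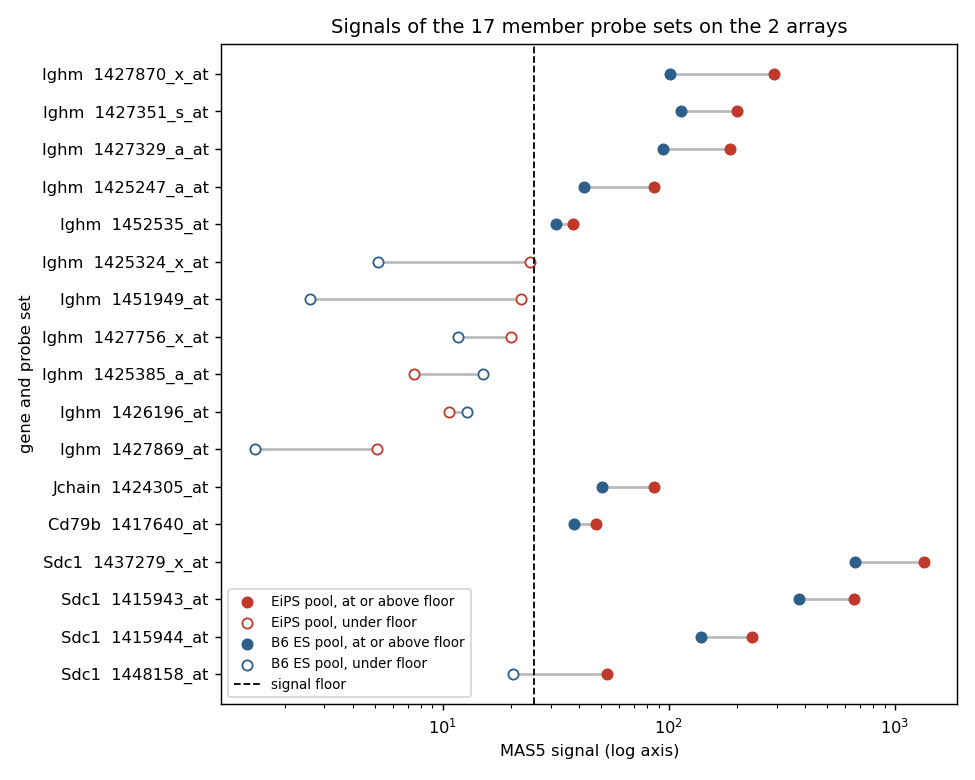
MAS5 signal on a log axis for each of the 17 probe sets of Ighm, Jchain, Cd79b and Sdc1, with red points for the EiPS pool, blue points for the B6 ES pool, open points for signals under the floor and a dashed line at the floor of 25.4. In 15 probe sets the EiPS point lies to the right of the B6 ES point; the 2 exceptions are Ighm probe sets under the floor on both arrays.

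Over all 17 probe sets, 15 had the higher signal in the EiPS pool and 2 the lower, and these 2 were under the floor on both arrays. Of all 20380 single-symbol probe sets, 55% had the higher signal in the EiPS pool. With the floor, 4 member probe sets were higher by 2-fold or more (2 of Ighm and 2 of Sdc1, 1 of them by a bound) and 0 lower by as much, out of 11 that were above the floor on 1 array or more. With the floor raised to 49.6, the B6 ES signals of Ighm 1425247_a_at and Sdc1 1448158_at were under it. Their differences were then at least 0.80 and at least 0.10 on the log2 scale, bounds too low to count as 2-fold. That leaves 2 of these 4 counted. The background over all 17560 probe sets compared was 6.21% higher by 2-fold or more and 3.25% lower by as much. Probe sets of 1 gene share their target, so these are counts over 4 genes, not 17 separate measurements. Among the 10231 genes above the floor on both arrays, 1.59% had a larger difference than Ighm, 4.72% than Sdc1, 8.87% than Jchain and 28.1% than Cd79b. The place of Ighm rests on 1427870_x_at alone: its other probe sets above the floor differed by 0.25 to 1.03. The gene differed by 0.98 without shared probe sets and by at least 0.52, a bound, with its probe sets averaged. The 3 genes whose log2 difference came closest to that of this Ighm probe set were Cd1d1, Cyp1b1 and Epha2, at 2.89-fold, 2.89-fold and 2.90-fold higher. This likeness is over 2 arrays only, and 61 genes were within 0.1 of Ighm on the log2 scale.

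**Figure D2:**
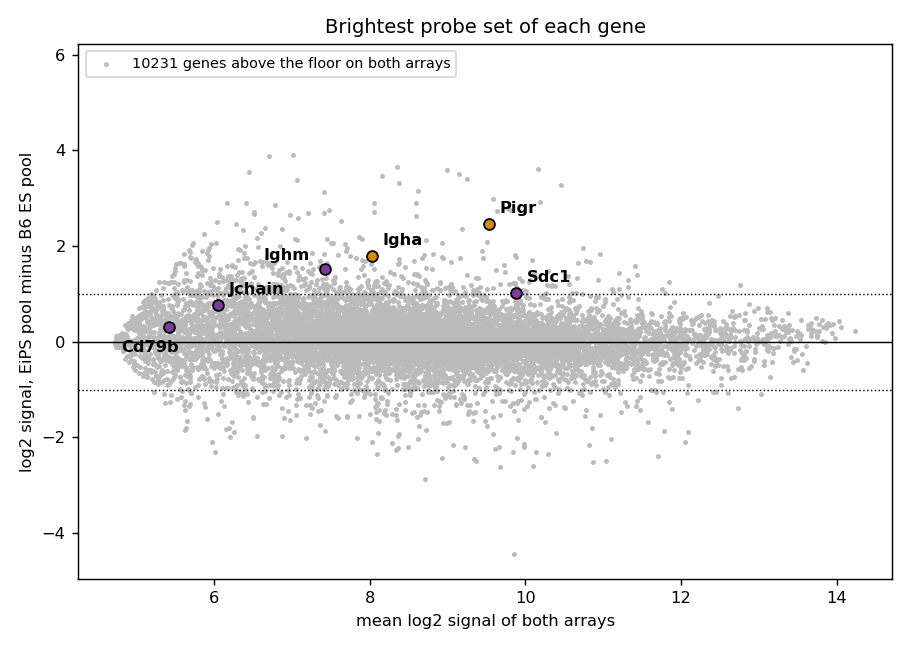
Log2 difference (EiPS pool minus B6 ES pool) against the mean log2 signal of both arrays, 1 grey point for the brightest probe set of each of 10231 genes over the floor in both pools, with the members in purple, Igha and Pigr in orange and dotted lines at 2-fold. Ighm (1.53) lies above the upper line, Sdc1 (1.01) on it, and Jchain (0.76) and Cd79b (0.32) under it.

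The regions before the starts of Jchain and Sdc1 are shown because these are the members for which RefSeq promoters of build GRCm38.p6 were at hand, 2 of the 5. Each is the 250 bases before the gene's start, in lower case, with matches to the motifs below in capitals.
Jchain, chr5:88527898-88528147, minus strand: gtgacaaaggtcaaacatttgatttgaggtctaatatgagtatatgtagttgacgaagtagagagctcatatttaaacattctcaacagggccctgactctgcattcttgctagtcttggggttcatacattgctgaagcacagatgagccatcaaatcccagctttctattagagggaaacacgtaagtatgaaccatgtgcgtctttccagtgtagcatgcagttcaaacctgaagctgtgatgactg
Sdc1, chr12:8771146-8771395, plus strand: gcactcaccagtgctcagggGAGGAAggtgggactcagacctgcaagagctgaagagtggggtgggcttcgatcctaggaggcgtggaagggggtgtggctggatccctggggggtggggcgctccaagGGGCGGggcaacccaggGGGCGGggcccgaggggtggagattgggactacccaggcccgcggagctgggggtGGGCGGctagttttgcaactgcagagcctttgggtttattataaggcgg
Searched on both strands were the octamer ATGCAAAT, which B cell octamer factors bind, GAGGAA, a core of the sites of the blood cell factor PU.1, the GC box GGGCGG, the E box CACGTG and the TATA box TATAAA. The Sdc1 window held 3 GC boxes and 1 GAGGAA, with no overlap between motifs, and the Jchain window held none of the 5 motifs. Of 32851 promoter windows of that length, 32.7% held GGGCGG, 23.3% GAGGAA, 12.4% TATAAA, 6.02% CACGTG and 1.60% ATGCAAAT. The GC content was 42% for Jchain and 66% for Sdc1, against a median of 52.4% over all windows. These matches describe the letters of the windows.

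Other antibody genes were read by 44 further probe sets, 31 with 1 symbol and 13 with several. Of 15 such genes in a list, 4 had a probe set with their symbol alone and 2, Igha and Ighg3, could be compared. Igha, the heavy chain of immunoglobulin A, the main antibody of mucosal surfaces, had 3 probe sets, all above the floor. Probe set 1421653_a_at had 565 in the EiPS pool and 98.1 in the B6 ES pool, a 5.76-fold difference. Probe set 1425763_x_at, the brightest, had 487 in the EiPS pool and 140 in the B6 ES pool, a 3.47-fold difference, and 1429381_x_at had 454 in the EiPS pool and 119 in the B6 ES pool, a 3.82-fold difference. On the log2 scale the 3 Igha probe sets differed by 1.79 to 2.52, all more than the 5 Ighm probe sets above the floor, which differed by 0.25 to 1.53. Whether Igha and Ighm differed unequally could not be tested with 1 array per group. Ighg3, the heavy chain of immunoglobulin G3, had 1 of 4 probe sets above the floor, with 26.6 in the EiPS pool and 30.5 in the B6 ES pool.

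Of 21 kappa light chain probe sets with 1 symbol, 19 were under the floor on both arrays. Probe set 1452463_x_at, which the annotation gives to the kappa variable segment Igkv8-30 alone, had 153 in the EiPS pool and 45.2 in the B6 ES pool, a 3.39-fold difference. By its suffix it may also match other sequences, and the annotation lists Igkv8-30 again among the genes of 3 brighter probe sets. Probe set 1452536_s_at, of another kappa variable segment, had 32.7 in the EiPS pool and 37.2 in the B6 ES pool. Among those given to several kappa genes at once, 1452417_x_at had 958 in the EiPS pool and 131 in the B6 ES pool, 1427660_x_at had 887 in the EiPS pool and 162 in the B6 ES pool, and 1427455_x_at had 378 in the EiPS pool and 81.3 in the B6 ES pool. These were 7.29-fold, 5.47-fold and 4.65-fold higher in the EiPS pool, and no single gene can be named from them. All 3 lambda light chain probe sets were under the floor on both arrays. In all, 16 of 55 antibody heavy and light chain probe sets, those of Ighm included, were above the floor on 1 array or more. Of these 16, 9 were higher in the EiPS pool by 2-fold or more and 0 lower by as much. Over all 17560 single-symbol probe sets compared, 6.21% were higher by 2-fold or more and 3.25% lower by as much. Probe sets of 1 gene, or with the same several symbols, share their target, so the 9 are not separate measurements.

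**Figure D3:**
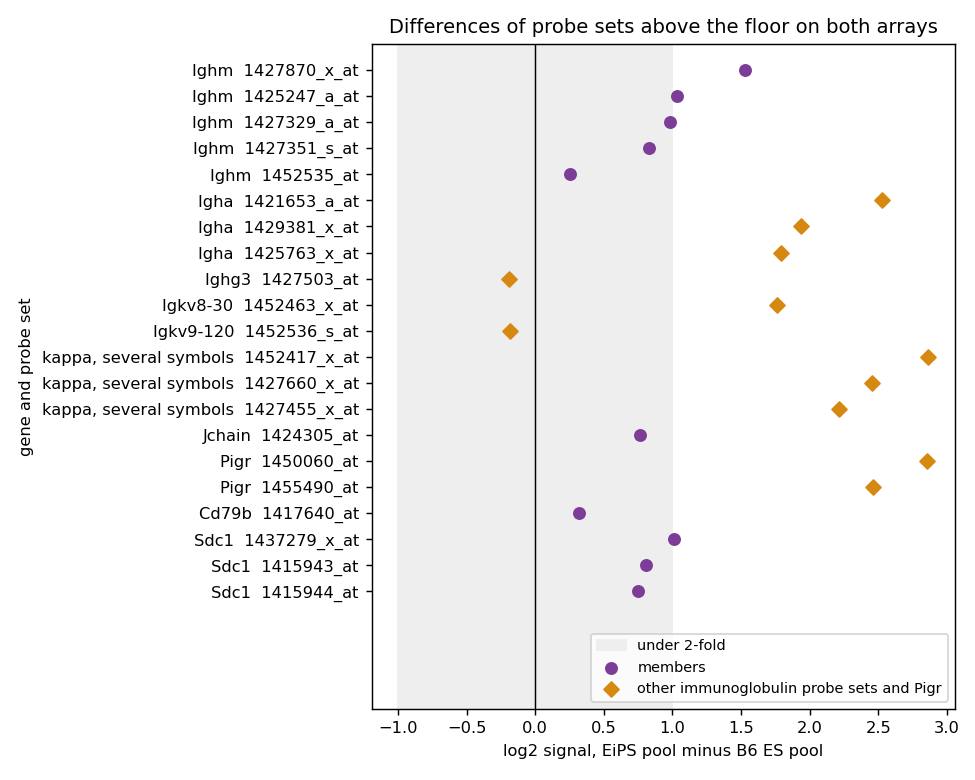
Log2 difference (EiPS pool minus B6 ES pool) of each probe set above the floor on both arrays for the members (purple circles) and for the other antibody genes and Pigr (orange diamonds), with differences under 2-fold shaded. The Igha, Igkv8-30, several-symbol kappa and Pigr probe sets lie at 1.76 or more, to the right of every member, while Ighg3 and 1452536_s_at lie just under 0.

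Pigr, the receptor that carries antibody with a J chain across epithelium, differed more than any other gene of its list. Its probe set 1455490_at had 1735 in the EiPS pool and 316 in the B6 ES pool, a 5.50-fold difference, and 1450060_at had 1393 in the EiPS pool and 193 in the B6 ES pool, a 7.22-fold difference. In that list of antibody transport and Fc receptor genes, 8 of 9 genes could be compared. All 8 were higher, 1 of them at least 2-fold, with a median of 0.48. Over all 10988 genes compared, 5.82% were higher by 2-fold or more, 3.04% lower by as much and 56.3% higher by any amount, and the median was 0.07. The activating Fc receptor chain Fcer1g was 1.61-fold higher, with 1090 in the EiPS pool and 678 in the B6 ES pool, and the Fc receptor Fcgr2b was 1.54-fold higher, with 571 in the EiPS pool and 370 in the B6 ES pool. Fcgr3 was 1.41-fold higher, and Cd5l, a macrophage protein that binds immunoglobulin M, 1.38-fold higher.

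Genes of the B cell receptor and surface were divided between those above and under the floor. Of 21 genes, 17 had a probe set of their own and 12 could be compared, of which 10 were higher and 2 lower in the EiPS pool, 4 were higher by 2-fold or more and 0 lower by as much, with a median of 0.24. That median was 0.05 after quantile normalization, 0.66 with the floor raised to 49.6 and 1.01 with a floor of 100. Cd79a, the partner of Cd79b, had 16.8 in the EiPS pool and 5.11 in the B6 ES pool, both under the floor. The brighter probe set of Ms4a1 (CD20) had 20.2 in the EiPS pool and 2.50 in the B6 ES pool, and Cr2, a complement receptor of B cells, had 10.9 in the EiPS pool and 10.3 in the B6 ES pool. Fcer2a and Btk were under the floor as well. Among the genes with the largest differences, Cd74 and Syk are also made by many other blood cells. Cd72, a B cell surface lectin, was 2.78-fold higher, with 246 in the EiPS pool and 88.6 in the B6 ES pool. Cd74, the invariant chain of MHC class II, was 2.44-fold higher, the kinase Syk 2.27-fold and the adaptor Blnk 2.01-fold. Another Syk probe set was 1.66-fold higher, and a further one was under the floor on both arrays. Blk, a B cell kinase, was 1.57-fold lower, with 27.9 in the EiPS pool and 43.9 in the B6 ES pool.

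Of 15 transcription factors and early genes of the B lineage, 14 had a probe set and 9 could be compared, with 6 higher, 3 lower, 4 higher by 2-fold or more, 0 lower by as much and a median of 0.71. That median was 0.30 with equal medians and 0.12 with log2(signal + 64). Pax5, which defines the B lineage, had 16.3 in the EiPS pool and 2.0 in the B6 ES pool. Pou2af1, a coactivator of octamer factors in B cells, had 15.9 in the EiPS pool and 24.2 in the B6 ES pool. Both were under the floor on both arrays, as were Vpreb1, Rag1 and Rag2. Bcl11a, a factor of lymphoid and neural cells, was 2.37-fold higher, and Ebf1, which also acts in fat and stromal cells, 2.20-fold, with 247 in the EiPS pool and 112 in the B6 ES pool. The other Ebf1 probe sets were 1.68-fold and 1.41-fold higher, and the other Bcl11a probe set 3.87-fold higher. Bach2 was 2.11-fold and Spib at least 2.07-fold higher, and the pre-B cell gene Vpreb3 was 1.66-fold lower. Mef2c, the brightest gene of the list, was 1.62-fold lower by its brightest probe set. That probe set had 1354 in the EiPS pool and 2187 in the B6 ES pool. All Mef2c probe sets were lower, with log2 differences from -1.13 to -0.69. Of these, 1421028_a_at was 2.19-fold and 1451507_at 2.14-fold lower. The list had a summed signal of 3144 in the EiPS pool and 3299 in the B6 ES pool.

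Of 17 genes of the plasma cell programme, 16 had a probe set and 14 could be compared, of which 13 were higher, some only as bounds, 1 was lower and 0 reached 2-fold in either direction. Their median was 0.26, against 0.07 over all genes. Xbp1, the factor that expands the secretory apparatus, had 4347 in the EiPS pool and 3541 in the B6 ES pool by its brightest probe set, and its 4 probe sets differed by -0.19 to 0.30. Prdm1, which drives plasma cell differentiation, had 182 in the EiPS pool and 168 in the B6 ES pool. Irf4 was at the floor at best, with 25.6 in the EiPS pool and 17.0 in the B6 ES pool, and Tnfrsf17 (BCMA), a survival receptor of plasma cells, had 1.30 in the EiPS pool and 2.48 in the B6 ES pool. The largest differences were those of Tent5c (1.76-fold higher), Creld2 (1.46-fold), Slamf7 (at least 1.46-fold), Tnfrsf13b (1.34-fold) and Fkbp11 (1.33-fold).

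Among 15 chaperones of antibody assembly, all compared, 9 were higher and 6 lower, with a median of 0.08 that turned to -0.0414 with equal medians. Hsp90b1, the chaperone that acts with Mzb1, had 6413 in the EiPS pool and 5221 in the B6 ES pool. Hspa5 (BiP), which holds unassembled heavy chains, had 7218 in the EiPS pool and 5916 in the B6 ES pool. Both differences, 1.23-fold and 1.22-fold, were about as large as the gauge of error for bright signals. Ero1a, an oxidase of the endoplasmic reticulum, was the 1 member that reached 2-fold, at 2.33-fold higher.

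In the list of B cell and plasma cell recruitment and survival genes, 13 of 20 could be compared. Of these, 11 were higher and 2 lower, 2 higher and 1 lower by 2-fold or more, with a median of 0.66. The 2 lower values, of Itgb7 and Il21, were bounds, as were several higher ones, those of Cxcl13, Ccr10, Ccr7 and Madcam1 among them. Cxcl12, a chemokine that retains plasma cells, was 2.16-fold higher by its brighter probe set, with 1064 in the EiPS pool and 494 in the B6 ES pool, and 1.12-fold higher by the other. Its receptor Cxcr4 was 2.09-fold higher, with 949 in the EiPS pool and 454 in the B6 ES pool. Ccl25, a chemokine of the small intestine, was 1.88-fold and Tnfsf13b (BAFF), a B cell survival factor, at least 1.84-fold higher. Itgb7, a gut-homing integrin chain, was at least 3.44-fold lower, with 15.7 in the EiPS pool and 87.6 in the B6 ES pool.

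**Figure D4:**
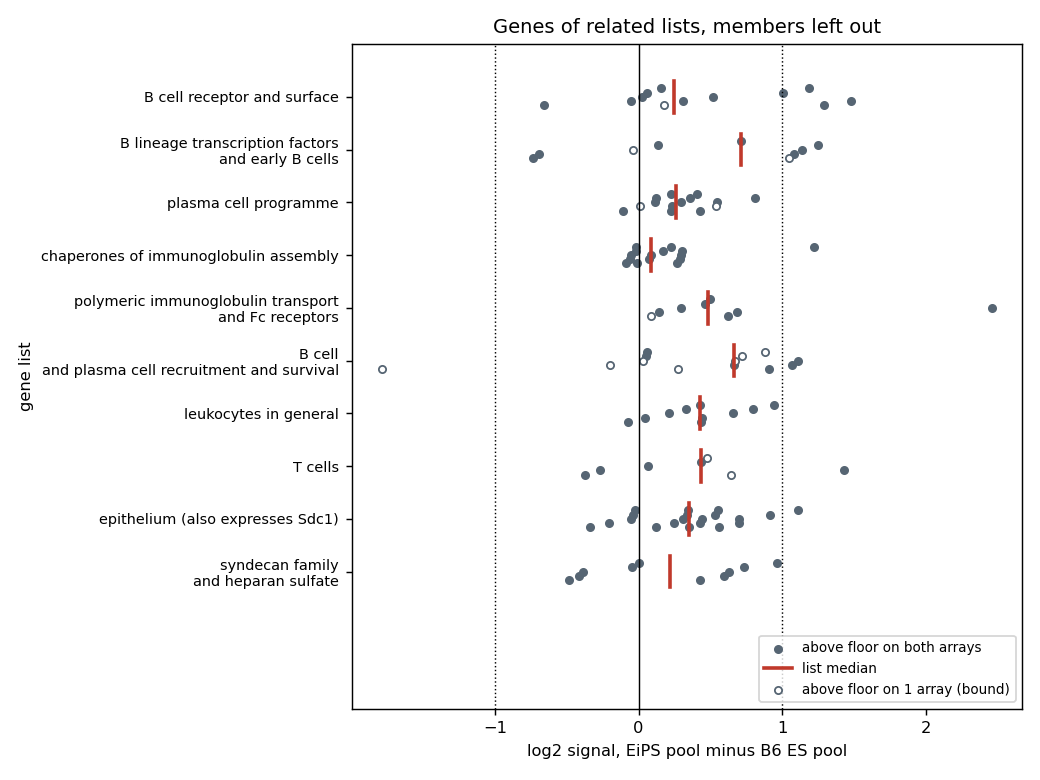
Log2 difference (EiPS pool minus B6 ES pool) of the brightest probe set of each gene that could be compared in 10 gene lists, with the members left out; open points are bounds, red bars are list medians and dotted lines mark 2-fold. List medians run from 0.08 (chaperones of immunoglobulin assembly) to 0.71 (B lineage transcription factors), and Pigr, at 2.46, stands to the right of all other genes.

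Markers of other cells were read beside these values, and their part in the differences of the members was not tested. General leukocyte genes had a summed signal of 5464 in the EiPS pool and 3988 in the B6 ES pool, with 9 of 10 higher, 0 at 2-fold and a median of 0.43. Cd52, the largest of them, was 1.92-fold higher, and Ptprc (CD45), which nearly all white cells carry, had 396 in the EiPS pool and 295 in the B6 ES pool. T cell genes had a summed signal of 529 in the EiPS pool and 459 in the B6 ES pool, and 7 of 12 with a probe set could be compared, 5 higher and 2 lower, 1 higher by 2-fold or more and 0 lower by as much, with a median of 0.43. Il7r, a cytokine receptor chain of T cells and early B cells, was 2.70-fold higher, with 81.7 in the EiPS pool and 30.3 in the B6 ES pool. By their brightest probe sets Cd8a was at least 1.56-fold and Cd28 at least 1.39-fold higher, while the other Cd28 probe set was at least 1.27-fold lower. Cd3g and Zap70 were the 2 lower genes. Cd3g had 32.8 in the EiPS pool and 42.5 in the B6 ES pool, and Zap70 had 187 and 225. Cd3e had 33.3 in the EiPS pool and 31.8 in the B6 ES pool. Cd3d, Cd4, Cd8b1, Cd2 and Lat were under the floor on both arrays. Macrophage genes summed to 30601 in the EiPS pool and 20361 in the B6 ES pool, with 7 of 12 higher, 1 at 2-fold or more, 0 lower by as much and a median of 0.32. Cd68 was 2.09-fold higher and Lyz2, a lysozyme, 1.93-fold. Lyz1, the brightest gene of the list, had 9818 in the EiPS pool and 5703 in the B6 ES pool. Another of its probe sets had 3905 in the EiPS pool and 4005 in the B6 ES pool. The 5 lower genes were Csf1r, Mrc1, Cd14, Adgre1 and Itgam, by less than the gauge of error for their brightest probe sets. Csf1r had 2269 in the EiPS pool and 2507 in the B6 ES pool. Genes of plasmacytoid dendritic cells, which in human also make the J chain, summed to 8076 in the EiPS pool and 8339 in the B6 ES pool, with 7 of 8 higher, 2 at 2-fold or more, 1 lower by as much and a median of 0.78. The exception was Cox6a2, also a heart and skeletal muscle gene, at 3.48-fold lower, and Ly6d, also an epithelial gene, was 2.53-fold higher.

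Epithelial genes bear on Sdc1, since epithelia make it. Their summed signal was 21883 in the EiPS pool and 16601 in the B6 ES pool. Of 20 genes, 15 were higher and 5 lower, 1 was higher by 2-fold or more and 0 lower by as much, with a median of 0.35. Dsp (desmoplakin) was 2.15-fold higher, Evpl (envoplakin) 1.88-fold, Ppl (periplakin) and Cldn7 (a claudin) 1.62-fold each. Another Dsp probe set above the floor was 1.46-fold higher. Krt8 and Cdh1, general epithelial genes, had 3029 and 1355 in the EiPS pool, against 2060 and 1378 in the B6 ES pool. The part of epithelium in the Sdc1 difference was not tested.

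The other syndecans, which carry heparan sulfate chains like Sdc1, did not all go its way. Sdc4 was 1.95-fold higher, with 2533 in the EiPS pool and 1300 in the B6 ES pool, and its other probe set was 1.56-fold higher. Sdc2 had 868 in the EiPS pool and 894 in the B6 ES pool by its brightest probe set, and its 3 probe sets differed by -0.51 to -0.04. Sdc3 had 1090 in the EiPS pool and 1426 in the B6 ES pool, and its 3 probe sets differed by -0.39 to -0.24. Of 10 syndecan, glypican and heparan sulfate genes compared, Sdc1 left out, 6 were higher and 4 lower, and 0 reached 2-fold, with a median of 0.22. The glypican gene Gpc3 was 1.66-fold higher and Gpc1 1.40-fold lower.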

How the data were processed

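Probe set signals of 2 Affymetrix arrays, 1 per group, were taken as deposited. The intensity values are linear and were made by the authors with Affymetrix Expression Console and MAS5, per the submitters' processing notes, which give no version. The 2% trimmed mean was 500.2 on both arrays, so the deposited values had been scaled to 1 level. cRNA came from 5 µg of total RNA, per the labels' protocols.

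Groups came from the labels. Symbols came from the platform annotation: of 22690 probe sets, 64 were controls, 20380 had 1 symbol, 691 several and 1555 none. Each gene was represented by its brightest probe set (by mean log2 signal). With 1 array per group no test was made. Tools were Python 3.11.15, pandas 2.3.3, NumPy 2.4.6, SciPy 1.17.1 and statsmodels 0.14.6, and the procedure was tested on simulated data.

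The members and the 14 gene lists were chosen with earlier results of these data known. Named were all members with every probe set, up to 5 genes per list with the largest difference (with the largest opposite one where it reached 2-fold), and preset B cell, plasma cell, syndecan, Pigr, Hsp90b1 and Hspa5 genes. The kappa, lambda and several-symbol probe sets, and Vpreb1, Rag1, Rag2, Fcer2a, Btk, Ptprc, Krt8 and Cdh1, were added after their values were seen. So were Mef2c, Cd3e, Zap70, the 5 lower macrophage genes and the T cell genes under the floor.

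Alternatives were a lower and a higher percentile of the silent receptors (75th, 98th) as the floor, a floor of 100, no floor, equal medians, quantile normalization, loess with a span of 0.4, log2(signal + 64), leaving out shared probe sets, and averaging a gene's probe sets.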

Additional observations from a re-analysis of the deposited data

How the results depend on the processing

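Each member gene with a probe set kept a higher signal in the EiPS pool under every alternative in which it could be compared. Log2 differences were 0.52 to 1.53 for Ighm, 0.81 to 1.04 for Sdc1, 0.39 to 0.76 for Jchain and 0.02 to 0.32 for Cd79b. The 0.52 was obtained with the probe sets of Ighm averaged. It is a bound, since the B6 ES average was under the floor, which took its place. Ighm moved by more than the gauge of error with log2(signal + 64) (1.11) and without shared probe sets (0.98). Over all genes, the count at least 2-fold higher was 639, and it was 1249 with no floor, 305 with a floor of 100 and 246 with log2(signal + 64). The count at least 2-fold lower was 334, and it was 720 with no floor and 187 with log2(signal + 64). The share of higher genes among these was 65.7%; it was 53.01% after quantile normalization, 52.5% with equal medians, 55.6% with a floor of 100 and 56.8% with log2(signal + 64). Equal medians moved the median of all genes to -0.06, against 0.07 with the deposited scaling. Reversed in sign were Ighm 1452535_at after quantile normalization (-0.0614), the T cell median with a floor of 100 (-0.27), which leaves fewer genes, and the chaperone median with equal medians (-0.0414). Other list medians that moved by more than the gauge of error were those of B cell receptor and surface genes (0.24), at 0.66 with the floor at the 98th percentile and 1.01 with a floor of 100, of B lineage genes (0.71), at 0.12 with log2(signal + 64) and 0.30 with equal medians, and of plasmacytoid dendritic cell genes (0.78), at 0.36 with the floor at the 98th percentile and 0.31 with log2(signal + 64). The median of the other immunoglobulin genes, 0.80 over 2 compared, ran from 0.01 to 2.09 over the alternatives. Igha was between 1.43 and 2.52 and Pigr between 2.24 and 2.66. Jchain could not be compared with a floor of 100, nor Cd79b with that floor or the one at the 98th percentile. No paired analysis was possible because each group has a single array.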
